A study of Mus musculus with 8 samples.

Results

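The genes described here are the 4 Notch receptors (Notch1, Notch2, Notch3 and Notch4), their Jagged ligands (Jag1 and Jag2), their Delta-like ligands (Dll1, Dll3 and Dll4) and Rbpj, the DNA-binding partner of the cleaved receptors. They are 10 of the 21951 protein-coding mouse genes of GENCODE M21 and were listed by name. Every peak of H3K27ac, the acetylation of a lysine in the tail of histone H3, over the gene body or within 20 kb of it was taken as a member peak. This gave 26 of the 28924 peaks of proliferating Oli-neu cells and 24 of the 27965 peaks of differentiating cells. The place of each peak relative to the annotated transcription start sites (TSSs), its width and its rank within its own list are described.

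Notch receptors are single-pass membrane proteins that are activated by Jagged or Delta-like ligands on the neighbouring cell. Ligand binding lets an ADAM protease and then the γ-secretase complex cut the receptor, and the released intracellular domain enters the nucleus, joins Rbpj and a Mastermind protein, and switches on target genes such as Hes1 and Hes5. In the oligodendrocyte lineage, canonical Notch signalling is known to hold precursors back from differentiation. H3K27ac marks active promoters and enhancers.

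Oli-neu is a mouse oligodendrocyte precursor line, labelled as derived from embryonic C57BL/6 progenitors. Proliferating cells were grown with T3 (340 ng/ml), thyroxine (400 ng/ml), bFGF (10 ng/ml) and Pdgf-BB (1 ng/ml). Differentiating cells were kept without growth factors but with 1 µM of the erb inhibitor PD174265. This lasted 1 day according to the sample labels, while the culture methods give a longer time. T3, thyroxine, bFGF and Pdgf-BB are listed for both samples, and whether T3 and thyroxine stayed in the differentiation medium is not stated separately. ChIP-seq with an H3K27ac antibody gave 1 library and 1 peak list per state, so a difference between the lists has no replicate spread to be set against, and no test between the states was run. No read counts came with the peaks and the depth behind each of them is unknown, and the 6 ATAC-seq samples of the series (3 siCtr and 3 siPadi2) are not analysed here. The line is a single cell line, so nothing here speaks of other cells of the lineage. The lists cover 22.0 Mb and 23.5 Mb, with median peak widths of 652 and 755 bp in proliferating and differentiating cells. Of 8 oligodendrocyte lineage markers, Olig1, Olig2 and Sox10 had a promoter peak (between 3000 bp before and 100 bp past the 5′-most start of the gene) in both lists. Nkx2-2, Pdgfra, Cspg4 and Mbp were among those with none in either, and other annotated starts of the markers were not examined. Over the gene body or within 20 kb, Nkx2-2 had 2 and 2 peaks in proliferating and differentiating cells. Pdgfra had 4 and 4, Cspg4 4 and 6, and Mbp 2 and 4. Of all protein-coding genes, 23.7% and 27.7% had a promoter peak in these lists. Of 16 markers of astrocytes, neurons, microglia and endothelium, the neuronal gene Syt1 alone had a promoter peak, in the differentiating list. Some of these also had peaks over the gene body or within 20 kb, such as Pecam1 with 4 and 3.

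At 6 members, peaks of both states share a stretch of DNA for which a start of the member is the nearest TSS. The stretch closest to such a start is printed for 5 of them, and these are shown because the peaks found in both states lie there. Each line gives the central 300 bases of the shared stretch, or the whole of it where it is shorter, on the strand of the gene in GRCm38/mm10. Capitals mark the letters TGGGAA, the core of the Rbpj site, on either strand (TTCCCA on the printed strand would be the reverse match). The letters ACAATG (core of a Sox site) and CAGCTG (an E-box that is its own reverse complement) were also searched on both strands and do not occur in these lines.
Notch1, intron 2, chr2:26501174-26501473, minus strand: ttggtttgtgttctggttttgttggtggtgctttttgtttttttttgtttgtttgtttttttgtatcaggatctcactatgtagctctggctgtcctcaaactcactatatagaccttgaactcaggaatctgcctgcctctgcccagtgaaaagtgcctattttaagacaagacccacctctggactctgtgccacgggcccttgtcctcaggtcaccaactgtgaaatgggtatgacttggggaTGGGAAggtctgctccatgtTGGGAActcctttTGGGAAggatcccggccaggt
Jag1, intron 2, chr2:137114798-137115097, minus strand: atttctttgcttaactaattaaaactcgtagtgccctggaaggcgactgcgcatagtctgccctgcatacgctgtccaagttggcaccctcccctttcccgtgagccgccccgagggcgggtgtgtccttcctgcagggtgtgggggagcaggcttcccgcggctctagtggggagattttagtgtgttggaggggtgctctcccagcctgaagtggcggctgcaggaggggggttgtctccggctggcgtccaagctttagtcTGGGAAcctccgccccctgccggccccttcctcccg
Rbpj, upstream of the main start, chr5:53589730-53590029, plus strand: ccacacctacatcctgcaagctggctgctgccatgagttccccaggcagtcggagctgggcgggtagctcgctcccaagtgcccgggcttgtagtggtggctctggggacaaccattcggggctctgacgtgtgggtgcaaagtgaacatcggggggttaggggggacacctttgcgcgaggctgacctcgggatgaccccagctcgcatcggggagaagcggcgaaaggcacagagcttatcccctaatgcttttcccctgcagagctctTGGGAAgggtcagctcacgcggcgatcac
Notch4, coding sequence of the last exon, chr17:34587458-34587757, plus strand: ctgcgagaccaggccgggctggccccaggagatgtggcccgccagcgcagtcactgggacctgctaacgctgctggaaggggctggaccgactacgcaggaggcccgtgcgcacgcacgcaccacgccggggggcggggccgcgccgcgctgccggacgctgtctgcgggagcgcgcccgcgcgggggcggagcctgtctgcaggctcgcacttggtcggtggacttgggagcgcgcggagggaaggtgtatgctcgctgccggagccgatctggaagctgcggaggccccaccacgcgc
Dll4, beyond the 3′ end, chr2:119337769-119337999, plus strand: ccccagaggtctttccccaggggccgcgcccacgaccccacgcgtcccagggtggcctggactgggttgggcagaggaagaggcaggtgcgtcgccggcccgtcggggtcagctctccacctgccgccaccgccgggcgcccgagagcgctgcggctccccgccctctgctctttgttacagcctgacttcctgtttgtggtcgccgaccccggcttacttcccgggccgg
The Notch1 line holds 3 matches to TGGGAA, the Jag1 and Rbpj lines 1 each, and the others none. The genome marks 41.7% of the bases of the Notch1 line as repeats, against 10.4% for Dll4 and 0% for Jag1, Rbpj and Notch4. Over the whole shared stretch the matches were 5 in 2086 bp at Notch1, 2 in 1074 bp at Jag1 and 5 in 1544 bp at Rbpj. CAGCTG occurred there as well, with 2 matches at Notch1, 2 at Jag1 and 1 at Notch4, and ACAATG did not. How many matches other stretches of these lengths hold was not computed. The Notch4 and Dll4 lines have an observed-to-expected CpG ratio of 0.919 and 0.768, against 0.549 for Jag1, 0.581 for Rbpj and 0.121 for Notch1. Over the whole shared stretch the ratio was 0.929 at Notch4, 0.768 at Dll4, 0.648 at Jag1, 0.865 at Rbpj and 0.269 at Notch1, so that Rbpj was then above Dll4. A match is a run of letters and not a measured binding site.

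In both states 9 of the 10 genes had at least 1 peak over the gene body or within 20 kb. By the same rule 62.7% of all protein-coding genes had a peak in proliferating cells, and 62.7% had one in differentiating cells. Peaks of both lists were found at 8 genes, against 53.1% of all genes, and the exceptions were Notch3, with peaks in the proliferating list alone, and Dll3, with peaks in the differentiating list alone. The 10 windows span 943 kb and held 2.76 peaks per 100 kb in proliferating and 2.55 in differentiating cells, against 1.70 and 1.72 over the windows of all protein-coding genes. Peak density differs between chromosomes, from 0.411 per 100 kb on chromosome 14 to 2.70 on chromosome 15 among the autosomes in proliferating cells, and lay between 0.611 and 1.51 on the 6 chromosomes that carry these genes. What part this has in the density of the windows was not tested.

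**Figure D1:**
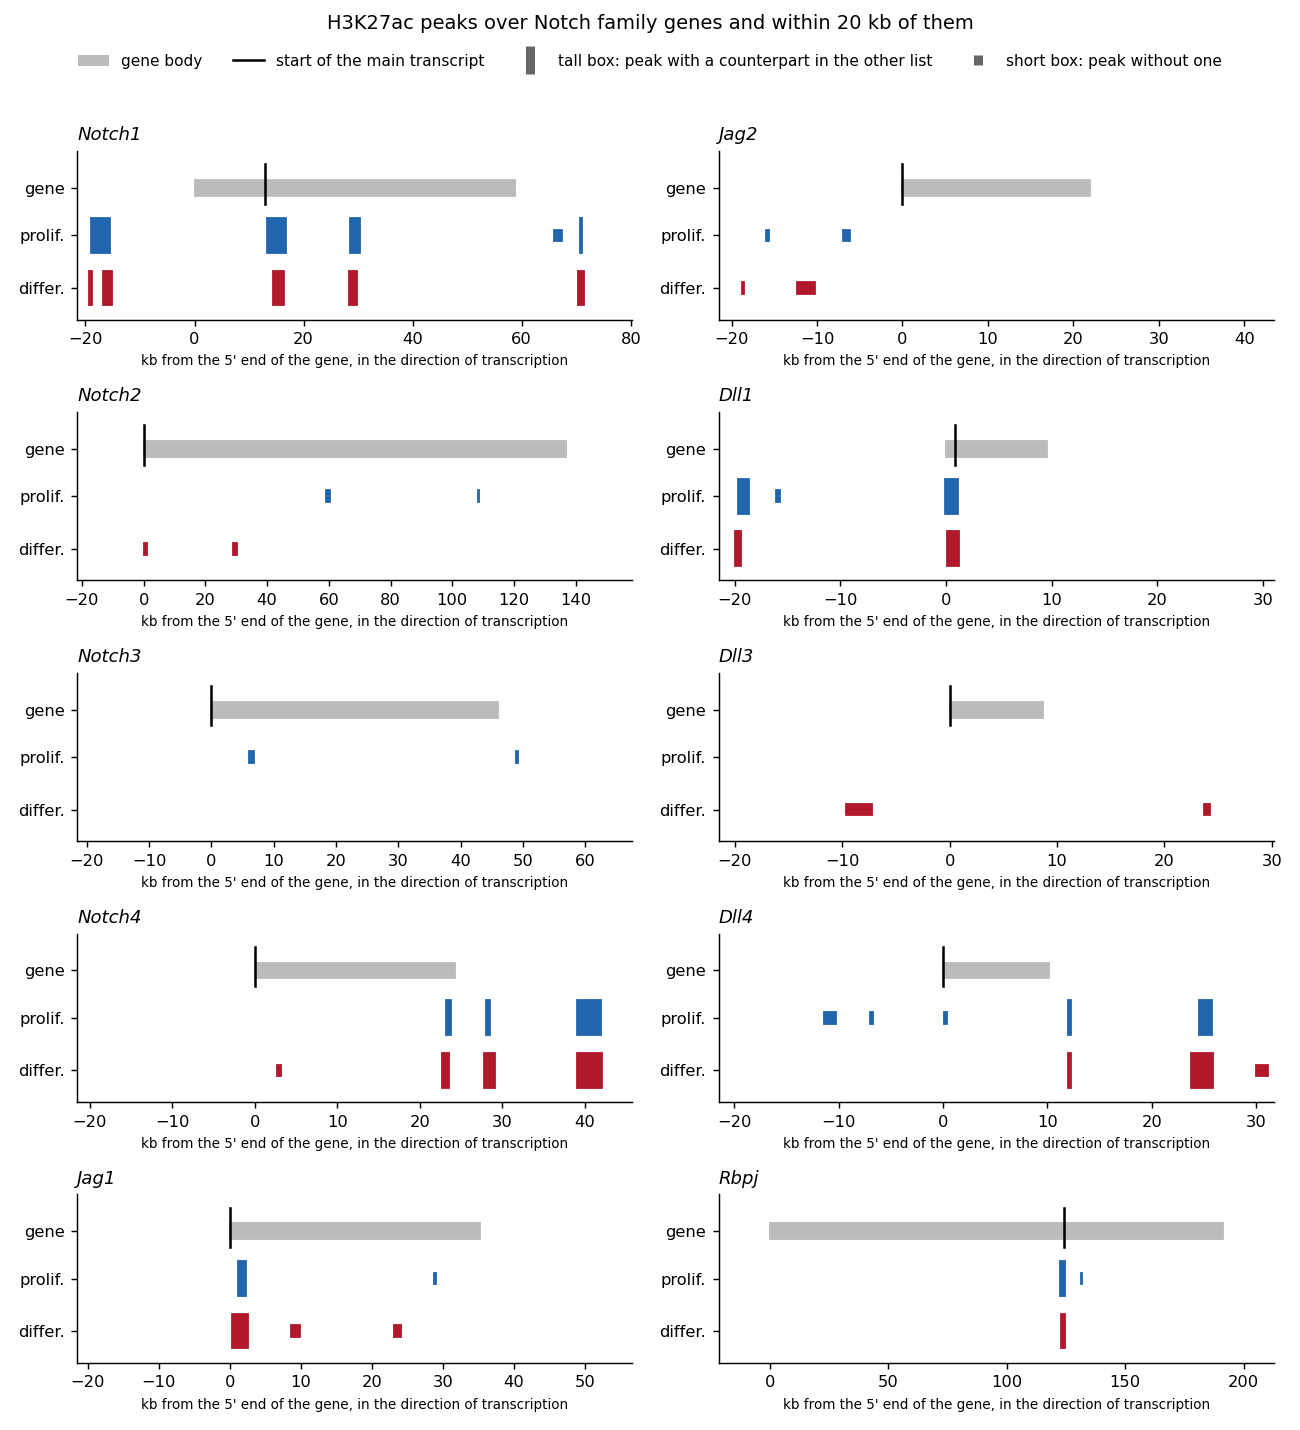
Positions of H3K27ac peaks (blue, proliferating; red, differentiating) around each gene, in kb from the 5′-most annotated start and in the direction of transcription; each panel has its own scale. Grey bars are gene bodies, black lines the start of the main transcript, tall boxes peaks with a counterpart in the other list and short boxes peaks without one, and the tall boxes lie at 6 of the 10 genes.

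A window can hold the start of another gene. The nearest protein-coding TSS belonged to the gene itself for 16 of the 26 proliferating peaks and 14 of the 24 differentiating peaks. The remaining 10 in each list were nearest to another gene, among them every peak in the windows of Jag2 and Dll3. Gene bodies held 12 and 11 peaks, the upstream flanks 7 and 6, and the downstream flanks 7 and 7.

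A counterpart, a peak of the other list that shares at least 1 base, was found for 13 of the 26 proliferating peaks (50%, 95% Clopper-Pearson interval 29.9 to 70.1%) and 14 of the 24 differentiating peaks (58.3%, 36.6 to 77.9%). Over the whole lists 29.2% of proliferating and 30.1% of differentiating peaks had one. These intervals cover counting error only and treat the peaks as independent of each other. The peaks lie together in 10 windows, however, with several of the shared ones at Notch1, and each overlap enters both shares. Among peaks nearest to the member's own TSS, 8 of 16 and 9 of 14 had a counterpart, and among those nearest to another gene 5 of 10 in both lists. The shared peaks lay at Notch1, Notch4, Jag1, Dll1, Dll4 and Rbpj, and Notch2, Notch3, Jag2 and Dll3 had none.

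**Figure D2:**
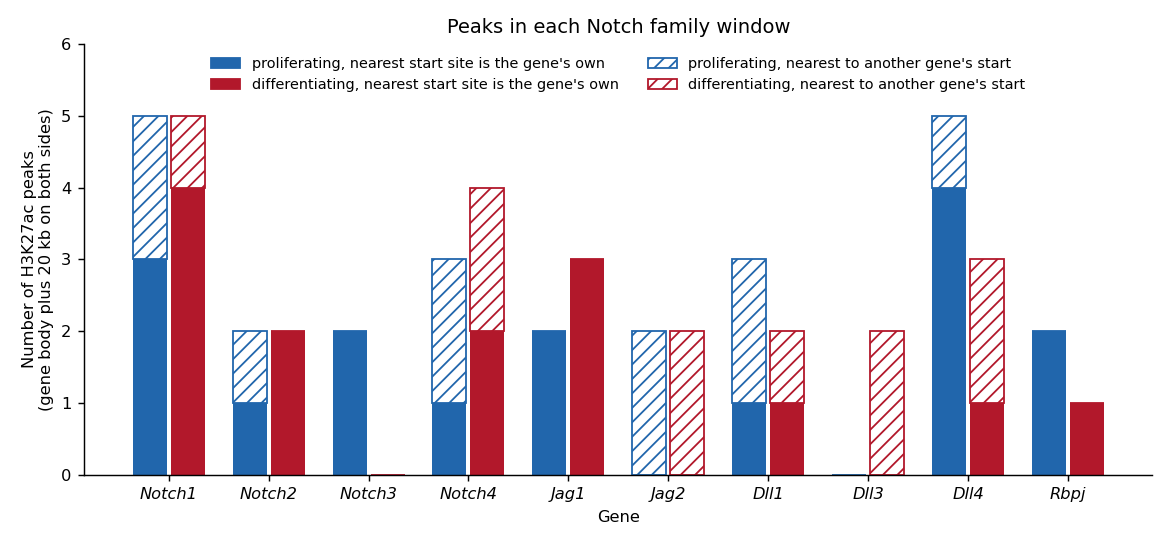
Number of H3K27ac peaks in the window of each gene (y axis) in proliferating (blue) and differentiating (red) cells, 1 library per state. Filled bars count peaks whose nearest protein-coding TSS is the gene's own and hatched bars peaks nearest to another gene; Notch1 has 5 peaks in both lists, while Dll4 has 5 in the proliferating and 3 in the differentiating list.

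Among the receptors, Notch1 (ENSMUSG00000026923.15, chromosome 2, minus strand, 26457903 to 26516663) had 5 peaks in proliferating and 5 in differentiating cells, more than 94.2% of protein-coding genes in both lists. Notch1 is a receptor of neural progenitors. Its main transcript, Notch1-201, the protein-coding transcript with the longest coding sequence, starts at 26503822, 12841 bp downstream of the 5′-most annotated start of the gene. In proliferating cells a peak of 3383 bp, from 26499930 to 26503312, began 510 bp downstream of this start and touched introns 1 and 2 and exon 2, which holds coding sequence. Its fold enrichment over the local background was 3.07, and its −log10 q was higher than that of 84.2% of the list (its percentile). The differentiating list had a peak of 2086 bp within it, from 26500281 to 26502366, with a fold enrichment of 2.94 and a percentile of 80.0. The Notch1 sequence printed above comes from the middle of this shared stretch, 2349 to 2648 bp downstream of the main start.

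Deeper in intron 2 of Notch1 lay another shared site. It was covered from 26486317 to 26488187 in proliferating cells (percentile 77.1) and from 26486827 to 26488335 in differentiating cells (percentile 87.5), with 1361 bp in common and a distance of 15635 and 15487 bp from the main start. The main start was also the annotated Notch1 start nearest to it.

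Upstream of Notch1, a proliferating peak of 3476 bp (26532143 to 26535618, percentile 51.8) overlapped both a differentiating peak of 1654 bp (26531756 to 26533409, percentile 64.2) and one of 468 bp (26535555 to 26536022, percentile 52.9). They began 15480, 15093 and 18892 bp from the 5′-most start. Their fold enrichments of 2.61, 2.69 and 2.57 lay above only 3.05%, 7.64% and 4.22% of their lists. The genome marks 57.3% of the bases shared by the first pair as repeats. The other peaks of the Notch1 window, beyond its 3′ end, were nearest to Sec16a, and the shared one reached percentile 5.59 in proliferating and 50.5 in differentiating cells.

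Notch2 (ENSMUSG00000027878.11, chromosome 3, plus strand, 98013527 to 98150361) had 2 peaks in each list and none of them shared a base with the other list. Close to its start, at 98013538, the differentiating list alone had a peak, from 98013791 to 98014657. It lay in intron 1, 253 bp downstream of the start, was 867 bp wide, had a fold enrichment of 3.25 and stood at percentile 47.9. The higher-ranked differentiating peak lay further along intron 1, from 98042509 to 98043694, at percentile 57.3. In proliferating cells a peak on exon 4 and intron 4 (98072603 to 98073810) stood at percentile 32.4. The other, on exon 19, was 263 bp wide and stood at percentile 77.6 (98122006 to 98122268), and the nearest TSS, 38362 bp away, was that of Adam30.

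Notch3 (ENSMUSG00000038146.8, chromosome 17, minus strand, 32120820 to 32166852), a receptor best known from vascular mural cells, had 2 peaks in proliferating and 0 in differentiating cells. One lay 2794 bp beyond the 3′ end, from 32117719 to 32118026. It was 308 bp wide and had the highest fold enrichment of the 26 proliferating member peaks, 5.04, at percentile 96.0 by −log10 q. The other lay in intron 2, from 32159930 to 32160796, at percentile 45.5. Neither touched an annotated Notch3 start.

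Notch4 (ENSMUSG00000015468.14, chromosome 17, plus strand, 34564268 to 34588503), a receptor of endothelial cells, had 3 and 4 peaks. The shared site over the gene body was at its 3′ end. The proliferating peak, from 34587394 to 34588065, lay within exon 30, the last of 30 exons, at percentile 54.8 with a fold enrichment of 3.01. The differentiating peak, from 34587011 to 34587821, covered parts of exons 29 and 30 and stood at percentile 94.7 with a fold enrichment of 4.05. It touched the start of Notch4-210, a short non-coding transcript at 34587041, and the proliferating peak began 353 bp downstream of it. They share 428 bp, from the middle of which the Notch4 sequence above is taken, all of it coding exon. A differentiating peak on exon 4 (34566924 to 34567466, percentile 68.4), 2656 bp downstream of the main start, had no counterpart.

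The window of Notch4 reaches into a gene-dense stretch of chromosome 17. The peak over the start of Pbx2, a homeodomain transcription factor gene, stood at percentile 86.8 in proliferating and 85.0 in differentiating cells. A peak of 2923 and 2999 bp over the starts of Agpat1 and Rnf5 stood at 76.5 in both.

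Of the Jagged ligands, Jag1 (ENSMUSG00000027276.7, chromosome 2, minus strand, 137081456 to 137116644) had 2 and 3 peaks, all nearest to its own starts. The shared site lay just inside the gene. The proliferating peak, from 137114411 to 137115484, began 1160 bp downstream of the start at 137116644, was 1074 bp wide, had a fold enrichment of 4.05 and stood at percentile 93.6. The differentiating peak, from 137114099 to 137116332, contained it, was 2234 bp wide, began 312 bp downstream of the start, had a fold enrichment of 3.33 and stood at percentile 70.9. It touched exons 1 and 2, and the proliferating peak exon 2. The remaining Jag1 peaks had no counterpart and lay on coding exons further along the gene, at percentile 57.4 in proliferating cells and 15.0 and 18.6 in differentiating cells.

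Jag2 (ENSMUSG00000002799.6, chromosome 12, minus strand, 112907819 to 112929776) had no peak over its gene body in either list. All peaks of its window lay upstream and were nearest to Nudt14, and none had a counterpart. In proliferating cells they lay 6175 and 15601 bp from the Jag2 start, at percentiles 14.7 and 58.3. In differentiating cells they lay 10231 and 18515 bp from it, at percentiles 49.9 and 56.5, and the nearer one, 2112 bp wide, covered the start of Nudt14.

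Dll1 (ENSMUSG00000014773.13, chromosome 17, minus strand, 15367354 to 15376872), a Delta-like ligand of neural progenitors, had a peak over an annotated start in both states, as did Rbpj. The proliferating peak, from 15375737 to 15376936, was 1200 bp wide with a fold enrichment of 3.66 at percentile 86.7, and it covered 2 annotated starts, those of Dll1-201 at 15375976 and of Dll1-205 at 15376872. The differentiating peak, from 15375625 to 15376778, was 1154 bp wide with a fold enrichment of 4.07 at percentile 96.9, and it covered the start of Dll1-201 and ended 94 bp short of that of Dll1-205. They share 1042 bp. The other peaks of the window lay upstream, near the start of Fam120b, with 1 shared pair at percentiles 80.7 and 44.4 and 1 proliferating peak without a counterpart at 65.1.

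Dll3 (ENSMUSG00000003436.11, chromosome 7, minus strand, 28293553 to 28302238), a divergent ligand that acts on Notch within the same cell, had no peak over its gene body. The proliferating list had 0 peaks in its window. The differentiating list had 2, which lay 213 bp from the start of Eid2b (28277952 to 28278508, percentile 69.8) and 78 bp from that of Timm50 (28309476 to 28311861, percentile 54.5). The latter, 7238 bp upstream of Dll3, was 2386 bp wide.

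Dll4 (ENSMUSG00000027314.6, chromosome 2, plus strand, 119325784 to 119335962), a ligand known from endothelial cells, had 5 and 3 peaks, more than 94.2% and 78.7% of protein-coding genes. Within exon 1 the proliferating list had a peak from 119325852 to 119326114. It began 68 bp downstream of the start, was 263 bp wide, the lowest width of that list, and stood at percentile 80.6 with a fold enrichment of 4.01. The differentiating list had none there. Upstream, further proliferating peaks lay 6751 and 10291 bp from the start at percentiles 82.4 and 24.7, without a counterpart.

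Beyond the 3′ end of Dll4, a narrow site was shared. It was covered from 119337769 to 119338031 in proliferating cells (263 bp, percentile 17.9) and from 119337721 to 119337999 in differentiating cells (279 bp, percentile 82.9), and its 231 shared bases are printed above. These widths are the lowest of the respective lists. Farther downstream, the peak over the start of Chac1 had the highest percentile of the member peaks in proliferating cells, 97.6, and stood at 68.8 in differentiating cells.

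Rbpj (ENSMUSG00000039191.12, chromosome 5, plus strand, 53466152 to 53657362) encodes the transcription factor to which all 4 receptors signal. Its main transcript, Rbpj-201, starts at 53590214, 124062 bp downstream of the 5′-most annotated start. Both lists had a peak over this downstream start. The proliferating peak, from 53588800 to 53590651, was 1852 bp wide with a fold enrichment of 3.59 at percentile 62.9. The differentiating peak, from 53589108 to 53590799, was 1692 bp wide with a fold enrichment of 3.75 at percentile 84.9. Both covered the starts of 3 protein-coding transcripts, Rbpj-201, Rbpj-203 and Rbpj-208, and they share 1544 bp. At the 5′-most start, that of Rbpj-210, neither list had a peak within 20 kb. A further proliferating peak in intron 1, 7147 bp downstream of the main start, stood at percentile 8.49 and had no counterpart.

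**Figure D3:**
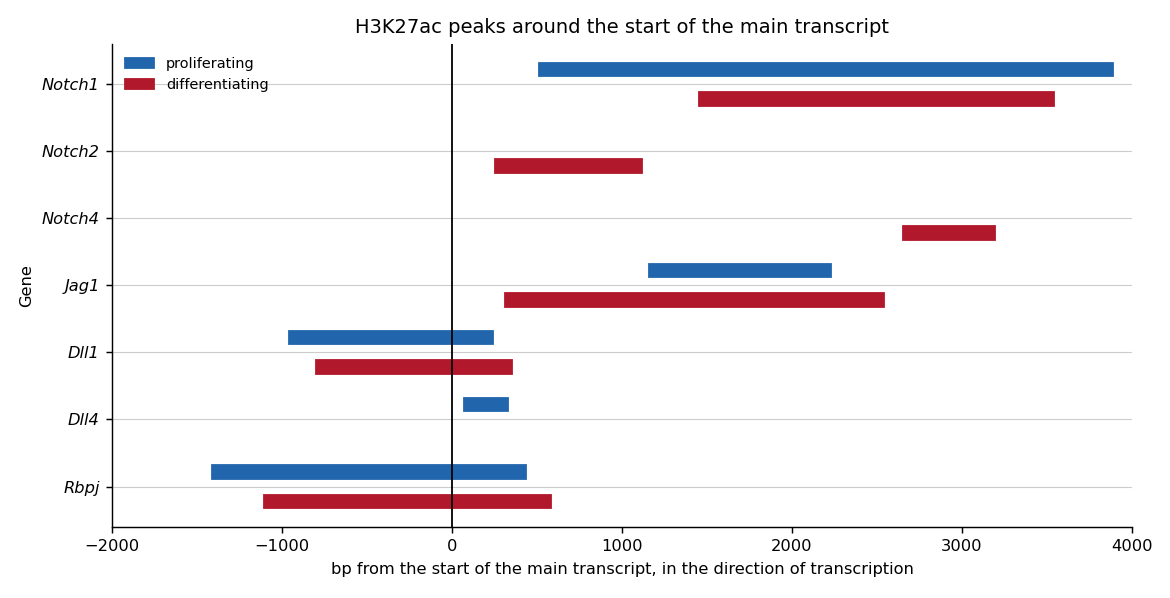
H3K27ac peaks of proliferating (blue) and differentiating (red) cells from 2000 bp before to 4000 bp past the start of the main transcript, at 0 on the x axis, for the 7 genes with a peak in that range. The Dll1 and Rbpj peaks lie across the start in both states, and those of Notch1, Notch2, Notch4, Jag1 and Dll4 begin downstream of it.

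The number of members with a promoter peak depended on the start used. In the promoter region, which runs from 3000 bp before to 100 bp past the 5′-most start, Dll1 and Dll4 had a peak in proliferating cells (2 of 10, against 23.7% of protein-coding genes) and Dll1 in differentiating cells (1 of 10, against 27.7%). In either list the count was 2 of 10, against 33.8%. The differentiating Dll1 peak, which begins 94 bp downstream of that start, reached only the last bases of the region. In a region that runs from 1000 bp before to 2000 bp past the main transcript's start, chosen after these peaks had been seen, 5 members had a peak in each list. They were Dll1, Dll4, Jag1, Notch1 and Rbpj in proliferating cells, against 27.9% of protein-coding genes, and Dll1, Jag1, Notch1, Notch2 and Rbpj in differentiating cells, against 32.0%. Notch3, Notch4, Jag2 and Dll3 had no peak in either region in either list.

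The member peaks spread over most of the range of their lists. Their median percentile by −log10 q was 64.0 in proliferating cells (5.59 to 97.6) and 68.6 in differentiating cells (15.0 to 96.9), where the median of a list is 50 by construction. The upper 50% of the list held 18 of 26 and 19 of 24 of them, and the uppermost 10% held 3 and 2. Fold enrichment ranged from 2.61 to 5.04 and from 2.57 to 4.07, with medians of 3.44 and 3.27 against 3.33 and 3.13 for the whole lists. The median width was 813 bp and 1170 bp, and 5 proliferating and 2 differentiating peaks had the lowest width of their list, as did 22.9% and 17.5% of all peaks.

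**Figure D4:**
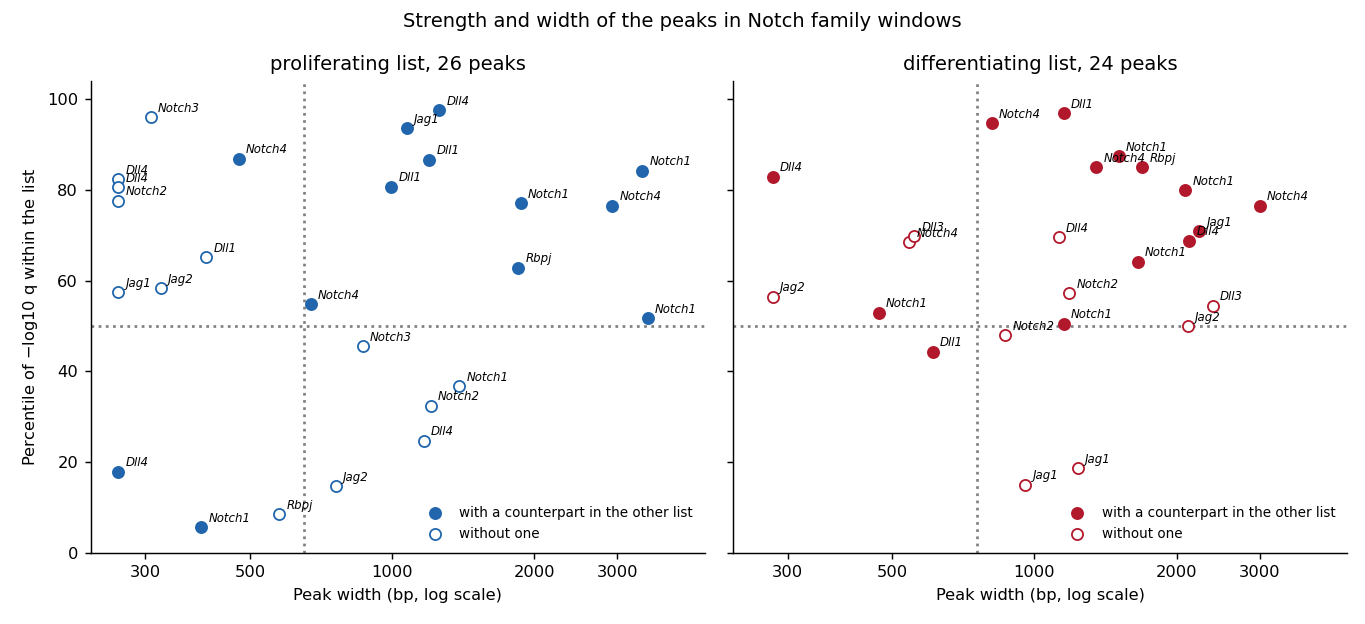
Width (x axis, bp, log scale) and percentile of −log10 q within the list (y axis) of the 26 proliferating and 24 differentiating peaks, labelled by gene. Dotted lines are the medians of the whole list, and filled points have a counterpart in the other list. Wide peaks with a counterpart in the windows of Notch1, Notch4 and Rbpj are among those above the median in both panels. The wide one labelled Notch4 lies over the starts of Agpat1 and Rnf5.

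Peaks within the gene bodies often touched exons. An exon of the main transcript was touched by 9 of 12 peaks in proliferating cells (75.0%) and 8 of 11 in differentiating cells (72.7%), against 40.3% and 43.5% of the peaks over all protein-coding gene bodies. Coding sequence was touched by 7 peaks in each list (58.3% and 63.6%), against 27.9% and 29.8%. Exons make up 11.2% of these gene bodies and 6.33% of all protein-coding gene bodies, and what part this has in the counts was not tested. Introns alone held 3 peaks in each list, at Notch1 intron 2 in both, Notch3 intron 2 and Rbpj intron 1 in proliferating cells, and Notch2 intron 1 in differentiating cells.

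In base composition, the central 300 bases of the member peaks had a median G and C content of 55.8% in proliferating and 55.5% in differentiating cells, against 47.3% and 47.7% over all peaks. A CpG ratio above 0.6 was found in 8 of 26 and 7 of 24, against 16.5% and 19.9% of all peaks. TGGGAA occurred in 6 of 26 (23.1%) and 6 of 24 (25.0%), against 24.0% and 24.2%. ACAATG occurred in 2 and 1 member peaks, against 14.4% and 14.3% of all peaks, and CAGCTG in 0 and 5, against 15.1% and 15.7%.

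RefSeq promoter windows of GRCm38, from 250 bases before to 50 bases after a start, were at hand for all 10 genes, 12 windows in all. Their median G and C content was 64.2%, against 52.7% over 32851 windows of all genes, and 75.0% of them had a CpG ratio above 0.6, against 35.8%. Windows covered over all 300 bases in both states were 1 of Dll1 and both of Rbpj. TGGGAA or its reverse was found in 2 of the 12 windows (16.7%, against 25.6% of all windows), and these were the overlapping windows of Rbpj itself.

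Around the receptors and ligands, 55 further genes of the pathway were listed by role. A promoter peak, again with the region around the 5′-most start, was found for 24 of them in proliferating cells (43.6%) and 31 in differentiating cells (56.4%). It was found for 18 in both and for 37 in either (67.3%). The background given above was 23.7% in proliferating cells, 27.7% in differentiating cells and 33.8% in either. The share of all protein-coding genes with a promoter peak in both lists was not computed. Such a peak need not lie on a start. In the region from 1000 bp before to 2000 bp past the main transcript's start, Psen2 and Nrarp had no peak in either list. Ncor1 and Hes5 had one there in proliferating cells alone, and Hdac1 in differentiating cells alone. The other genes with a promoter peak in both lists had a peak there in both.

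The enzymes that cut the receptor had a promoter peak in 9 of 10 cases in either list. Adam17, a sheddase, and Psen2 and Ncstn, components of γ-secretase, had one in both lists, with percentiles of 41.7 and 85.7 for Adam17, 95.9 and 59.6 for Psen2, and 68.6 and 87.7 for Ncstn. Adam10 and Aph1c were among those with one in the proliferating list alone, at 60.9 and 91.8, though the Adam10 peak overlapped a differentiating peak that lay outside the region. Among the 5 genes of receptor glycosylation, Pofut1 and Poglut1, which add fucose and glucose to the extracellular repeats, and the fringe enzyme gene Rfng had one in both lists, with Pofut1 at 90.3 and 94.8.

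Of 14 genes of trafficking and inhibition, 3 had a promoter peak in proliferating and 7 in differentiating cells. Nrarp, an inhibitor of the Notch complex that is itself a target, and Dtx4, a Deltex ubiquitin ligase, had one in both, at 79.1 and 88.9 for Nrarp and 92.5 and 94.5 for Dtx4. Numb, which promotes the internalisation of Notch, and Dtx3 had one in the differentiating list alone, at 83.4 and 82.5, though the Dtx3 peak overlapped a proliferating peak that lay outside the region.

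Nuclear partners of Rbpj had one in 9 of 16 cases in proliferating and 10 in differentiating cells, 7 of them in both. The acetyltransferase gene Ep300, which writes H3K27ac, stood at 98.9 and 98.3, and the deacetylase gene Hdac2 at 97.4 and 97.8. Ep300 lies on chromosome 15 and Hdac2 on chromosome 10. These held 2.70 and 2.30 peaks per 100 kb in proliferating cells, the highest values of the autosomes. What part this has in the ranks was not tested. Hdac1, Ctbp1, Ncor1 and Spen, of the repressor side, and the coactivator gene Maml2 also had a promoter peak in both lists. The Hdac1 peaks, however, did not overlap a peak of the other list. Maml1 and Kat2b had one in the differentiating list alone (81.5 and 80.8), and Snw1 and Ctbp2 in the proliferating list alone (73.9 and 64.4). The peaks of Maml1, Kat2b and Ctbp2 nevertheless overlapped a peak of the other list that lay outside the region.

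Of the 5 target genes, Hes1 had a promoter peak of 1921 bp in proliferating cells at percentile 92.9 and of 1348 bp in differentiating cells at 98.3. Hes5 had one in both lists as well, at 37.3 and 66.4, though its highest-ranked proliferating peak did not overlap a differentiating peak. No differentiating peak lay from 1000 bp before to 2000 bp past the start of its main transcript. Hey1 had a promoter peak in the differentiating list alone, at 91.1. Of the 5 non-canonical ligands, Cntn1, a neural adhesion molecule, had one in both lists (96.3 and 98.5), with 16 and 18 peaks in its window. Cntn1, like Ep300, lies on chromosome 15.

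**Figure D5:**
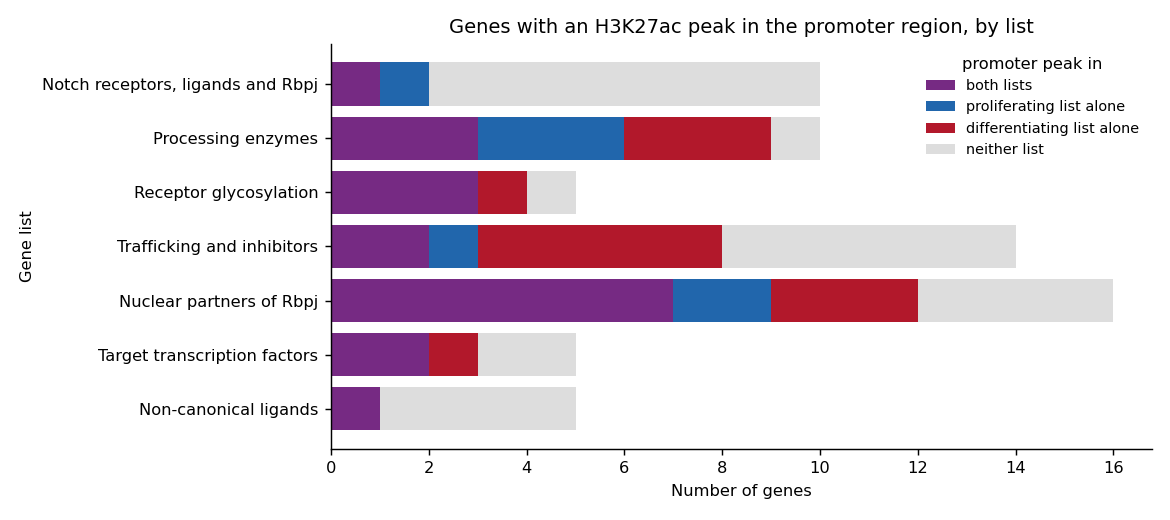
Number of genes (x axis) with an H3K27ac peak between 3000 bp before and 100 bp past the 5′-most start, for the 10 Notch receptors, ligands and Rbpj and for 6 lists of other pathway genes (y axis). Colours show in which list the peak was found; the coloured part covers 2 of 10 in the top row and 9 of 10 in the row of processing enzymes.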

How the data were processed

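H3K27ac ChIP-seq was measured in 2 libraries, 1 of proliferating and 1 of differentiating Oli-neu cells. The authors aligned reads to GRCm38/mm10 with Bowtie2 2.1.0, removed duplicates with SAMtools, called broad peaks with MACS2 2.0.10 and removed blacklisted peaks with bedtools. They deposited 1 peak list per library, without read counts, so depth per peak is unknown, and no input library is named in the sources used here. The lists have no header. The values beside each peak were read, in the order of the caller, as a ratio (fold enrichment), then −log10 p, then −log10 q, and were ranked only within a list. The weakest q was 0.0995 in the proliferating and 0.0983 in the differentiating list, above the cutoff of 0.05 in the methods, so that the reading of this value as q rests on the order of the caller alone.

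Peaks were joined to GENCODE M21, which is on the same build. A window is the gene body plus 20000 bp on both sides, a promoter region runs from 3000 bp before to 100 bp past the 5′-most start, and peaks that share at least 1 base overlap. The main transcript is the protein-coding one with the longest coding sequence. The shares of member peaks with a counterpart have 95% exact (Clopper-Pearson) intervals, and the other shares have none. Members, gene lists and rules were chosen with earlier results of these data known. All members are named. Single peaks are described where they rank highest for a gene and list, touch a start or have a counterpart, and pathway genes are named where both lists have a promoter peak and otherwise up to 5 per list by percentile. Some items, among them 1 sequence, are not reported here. Sequences were read from GRCm38, and promoter windows from RefSeq. Python 3.11.15, numpy 2.4.6, pandas 2.3.3, scipy 1.17.1, matplotlib 3.10.9 and samtools 1.23.1 were used. The counting of overlaps, promoters and windows was tested on simulated peaks.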

Additional observations from a re-analysis of the deposited data

How the results depend on the processing

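Each state has 1 library, so leaving out a replicate could not be run and no difference between the states was tested. No paired analysis was possible because each state has 1 library and no result comes from a test. With the gene body alone the member peaks numbered 12 in proliferating and 11 in differentiating cells, and with only those nearest to the member's own TSS 16 and 14. Flanks of 10000 bp left 14 differentiating peaks. Where both lists were limited to a −log10 q of 5 or more, 2 peaks remained in each (Notch3 and the Chac1 start near Dll4; Notch4 and Dll1), with 0 genes in both lists and a share with a counterpart of 0% in both. The promoter counts in either list were then 1 member and 8 pathway genes. A reciprocal overlap of at least 0.5 lowered the share with a counterpart to 30.8% in proliferating and 33.3% in differentiating cells. The share of all peaks under this stricter rule was not computed. The whole-list shares given above, for an overlap of at least 1 base, are therefore not its background. Members with a promoter peak in either list numbered 4 with 1000 bp on both sides of the start and 5 with the starts of every transcript. They numbered 6 with 1000 bp before to 2000 bp past the main transcript's start, a region added after the data had been seen. For these promoter settings and for the stricter q, the either-list share of all protein-coding genes was not computed. Whether these counts differ from that share was therefore not examined. A q of at most 0.05, equal numbers of peaks and counterparts within 1000 bp moved none of the counts and shares of members by more than the limit set (1.5 times for a count). Of the values per gene or per list (peaks of a gene, promoter counts and median percentiles), 94 stayed within the limit and 58 moved beyond it. Narrower windows and the stricter q can only take peaks away, so the peak counts of a gene that moved were lower.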
